A study of Mus musculus with 23 samples.

Results

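Peritubular contractile genes are the smooth muscle genes by which the flattened cells around the seminiferous tubule are usually recognised. The 9 genes described here, Acta2, Actg2, Myh11, Cnn1, Des, Tagln, Myl9, Mylk and Smtn, were taken by gene symbol from the annotation of the array. They were chosen with earlier results of these data known, so shares over all genes are set beside their counts as description only. All 9 were present among 19661 genes with a single symbol, each with 1 probe set, and all 9 were among the 14745 genes bright enough to be tested. The study hybridised RNA from juvenile mouse testes of 7 genotypes to Affymetrix Mouse Gene 1.0 ST arrays, which probe a transcript along its length. The mice were 14.5 days old, the tunica of the testis had been taken off and the spermatogenic cells prepared, and every array held a pool of 4 testes. Values are the log2 levels of the deposited table, so that a difference of 1 is a doubling, and 1 more PWDxPWK array had been left out by the authors as an outlier.

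By the usual convention the mother's strain stands first in the name of a cross. The groups were (PWDxB6)F1 hybrids (3 arrays), the reciprocal (B6xPWD)F1 hybrids (3 arrays), (PWDxPWK)F1 (2 arrays), (BALB/CxB6)F1 (3 arrays), the reciprocal (B6xBALB/C)F1 (6 arrays), and the inbred parents PWD (3 arrays) and B6 (3 arrays). PWD and PWK are inbred strains of the subspecies Mus musculus musculus, whereas B6 and BALB/C are classical laboratory strains that derive mostly from Mus musculus domesticus. PWDxB6 and B6xPWD are therefore hybrids between subspecies, and the other F1 mice are crosses within 1. PWDxB6 males are a standard model of hybrid sterility, and reciprocal hybrids carry the same autosomes but differ in their X and Y chromosomes and in their mother.

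Peritubular myoid cells line the tubule, deposit part of its basement membrane and contract to move sperm and fluid along the lumen. Contraction in smooth muscle follows the phosphorylation of the light chain of myosin by a kinase that calcium and calmodulin switch on, after which myosin pulls on actin filaments anchored to the cell's intermediate filaments and adhesions. Many of the genes involved are activated by serum response factor (SRF) and its partner myocardin through CArG boxes. Smooth muscle elsewhere, such as that of blood vessels, expresses most of these genes too. In RNA from mixed cells, fewer cells of a type and less RNA per cell cannot be told apart.

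RefSeq promoter windows (GRCm38.p6, from 250 bases before to 50 bases after a transcript start) were available for 6 of the 9 genes, namely Acta2, Cnn1, Des, Myl9, Mylk and Smtn. They were searched on both strands for a CArG box, which is CC followed by 6 bases that are each A or T and then GG, and for a CArG-like box, in which 1 of those 6 bases is G or C. Acta2 held 2 CArG-like boxes, 84 to 75 and 34 to 25 bases before the start, and Myl9 held a CArG box 161 to 152 bases and a CArG-like box 99 to 90 bases before the start. Of all 32851 promoter windows of this length, 1.63% held a CArG box, 8.5% a CArG-like box and 9.98% either of them. The boxes are shown in capitals in the stretches that hold them, since they are the sites that SRF is known to bind.
Acta2 (chr19:34255374-34255473, minus strand, 100 to 1 bases before the start): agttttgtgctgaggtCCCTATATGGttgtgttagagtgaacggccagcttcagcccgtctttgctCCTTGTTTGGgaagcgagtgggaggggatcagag
Myl9 (chr2:156775284-156775383, plus strand, 180 to 81 bases before the start): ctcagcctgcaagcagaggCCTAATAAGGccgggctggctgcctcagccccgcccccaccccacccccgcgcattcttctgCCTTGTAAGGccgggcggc

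The windows of Cnn1, Des, Mylk and Smtn held neither box, which says only that these letters do not stand in these 300 bases. For Acta2, Cnn1, Myl9 and Mylk the start that the table uses lies inside the span of the gene rather than at its outer edge, so other start sites were not searched. The 250 bases before the start are shown for Cnn1, Des and Smtn, the genes that differed between the reciprocal hybrids, with no capitals because no box was found.
Cnn1 (chr9:22099003-22099252, plus strand): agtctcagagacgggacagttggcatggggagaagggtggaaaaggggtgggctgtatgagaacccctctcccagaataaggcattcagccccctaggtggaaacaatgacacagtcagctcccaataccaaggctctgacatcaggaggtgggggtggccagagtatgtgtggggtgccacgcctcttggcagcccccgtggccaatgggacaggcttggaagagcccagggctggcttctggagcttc
Des (chr1:75360042-75360291, plus strand): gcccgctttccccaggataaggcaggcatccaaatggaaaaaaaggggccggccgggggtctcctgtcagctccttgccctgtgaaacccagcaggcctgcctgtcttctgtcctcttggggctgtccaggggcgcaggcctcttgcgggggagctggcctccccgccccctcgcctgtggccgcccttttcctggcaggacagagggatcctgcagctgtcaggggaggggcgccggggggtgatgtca
Smtn (chr11:3539293-3539542, minus strand): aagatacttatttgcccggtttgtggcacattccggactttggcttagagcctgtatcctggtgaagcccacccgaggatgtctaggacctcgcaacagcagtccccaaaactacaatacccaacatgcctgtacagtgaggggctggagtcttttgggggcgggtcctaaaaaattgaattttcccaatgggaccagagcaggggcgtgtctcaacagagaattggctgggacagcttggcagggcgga

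The 23 arrays were close in scale, with medians of 6.13 to 6.28. Besides the contractile genes, markers of Sertoli cells averaged 9.15 to 9.78 and markers of meiotic prophase 8.38 to 9.68 over single arrays. Markers of blood vessel mural cells averaged 6.21 to 6.81 and endothelial markers 5.92 to 6.71, and Higd1b of the mural list was left out as dim. The skeletal muscle list averaged 5.60 to 6.16, with Myh4 and Myl1 left out as dim. Levels of different genes are not comparable on this array, so these averages do not rank the amounts of the cell types. Whether pools of 1 genotype were from different litters is not stated, so each p-value reflects only how far these pools spread, which may be technical. Precision is limited by the 2 to 6 arrays of a group.

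**Figure D1:**
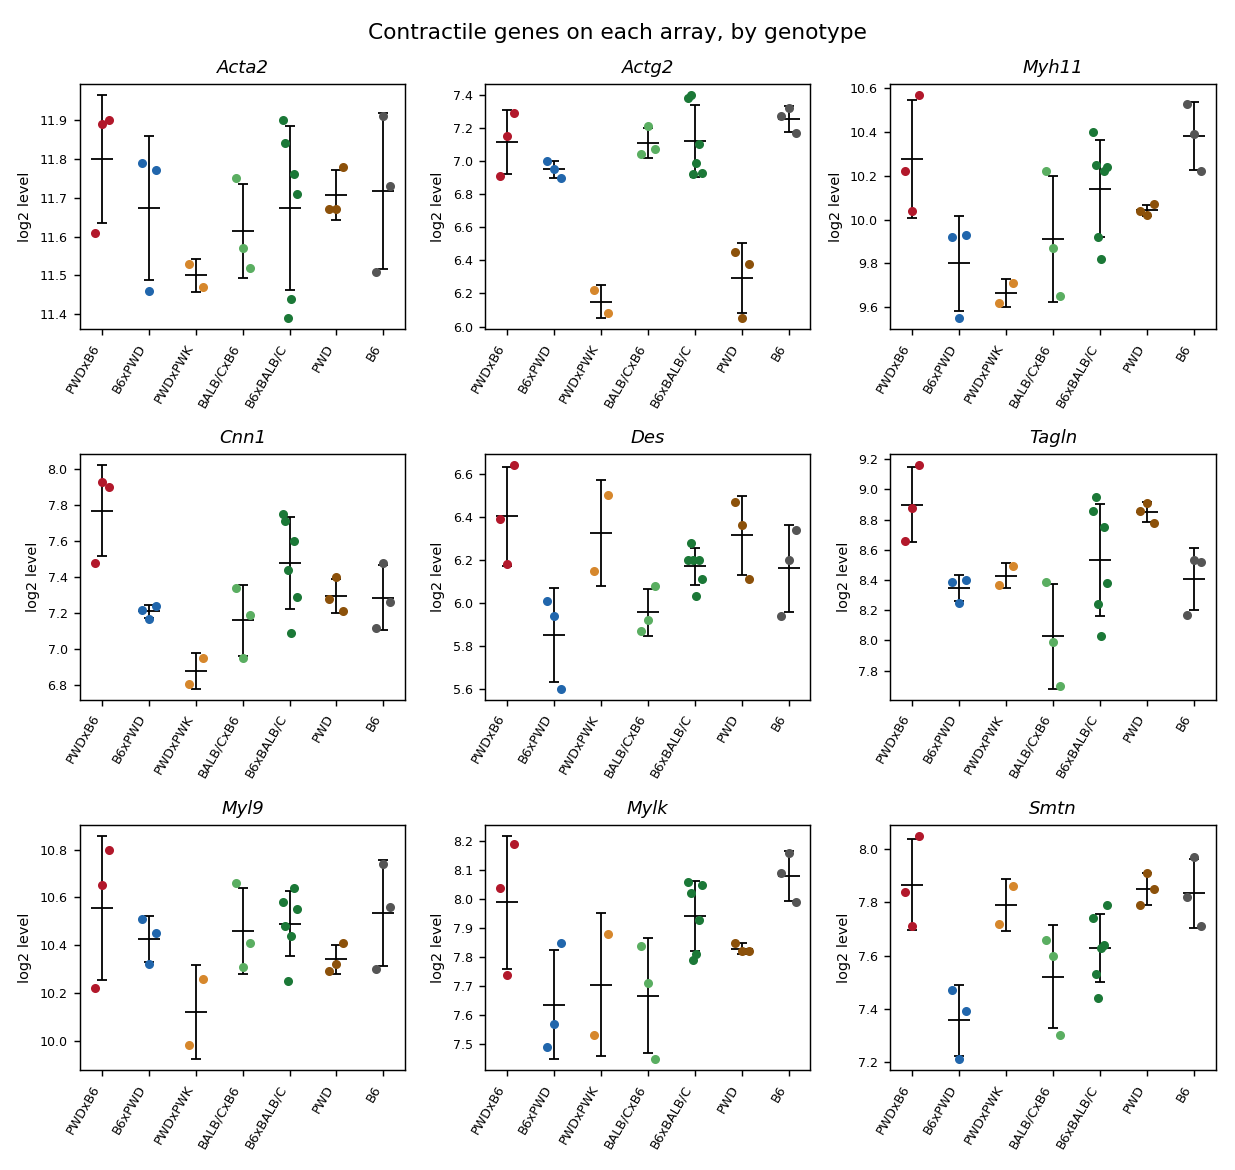
Levels of the 9 contractile genes on a log2 scale (vertical axis, a separate range for each panel) in the 7 genotypes (horizontal axis). Each point is 1 array and each bar is the mean with its standard deviation. Actg2 lies between 6.05 and 6.45 in PWD and PWDxPWK and between 6.90 and 7.40 in the other genotypes, while Acta2 overlaps between neighbours in the order of its means.

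Of the 9 genes, 7 differed among the 7 genotypes in limma's F test at a Benjamini-Hochberg adjusted p under 0.05, as did 33.8% of all genes tested. Actg2 had the smallest adjusted p (4.09e-06), followed by Cnn1 (0.00604), Smtn (0.00749), Myh11 (0.0161), Tagln (0.0165), Des (0.0225) and Mylk (0.0371). Acta2 (adjusted p = 0.67) and Myl9 (adjusted p = 0.226) did not pass. Their genotype means spanned 0.30 and 0.44 log2 units, against 1.11 for Actg2.

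The actins form the thin filament. Acta2, the smooth muscle alpha-actin by which myoid cells are commonly stained, ranged from 11.39 to 11.91 over all 23 arrays. Its genotype means ran from 11.80 ± 0.17 in PWDxB6 (SD, n = 3) through B6, PWD, B6xBALB/C, B6xPWD and BALB/CxB6 to 11.50 ± 0.04 in PWDxPWK (SD, n = 2), and every genotype overlapped its neighbour in that order. The arrays of B6xBALB/C alone covered 11.39 to 11.90, close to the whole range.

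Actg2, the gamma-actin of visceral smooth muscle, separated the mice without a B6 genome from the rest. It stood at 6.22 and 6.08 in PWDxPWK, and at 6.45, 6.05 and 6.38 in PWD. It stood at 6.91, 7.15 and 7.29 in PWDxB6, at 7.0, 6.95 and 6.90 in B6xPWD, at 7.04, 7.21 and 7.07 in BALB/CxB6, and at 7.27, 7.32 and 7.17 in B6. In B6xBALB/C the lowest, median and highest array had 6.92, 7.05 and 7.40. No array of PWD or PWDxPWK reached the lowest array of any other genotype, and the step from B6xPWD (6.95 ± 0.05) to PWD (6.29 ± 0.21; SD, n = 3 each) was 0.66, or 3.09 times the larger SD. BALB/CxB6 and B6xPWD did not overlap either, whereas the remaining neighbours did.

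Actg2 was lower in PWD than in B6 by a difference of -0.96 ± 0.13 (SE; limma adjusted p = 2.05e-05), or 1.95-fold. This was the only one of the 9 genes called between the parental strains, where 8.04% of all genes were called lower and 10.4% higher. The means of both hybrids between the subspecies lay nearer B6 than PWD. PWDxB6 differed from the mean of the parents by 0.35 ± 0.12 (SE; limma adjusted p = 0.209) and B6xPWD by 0.18 ± 0.12 (SE; adjusted p = 0.302), and neither passed. PWDxPWK differed from PWD by -0.15 (95% interval -0.45 to 0.16). The array probes were designed on a reference genome, and the strains' sequences under them were not analysed here, so less Actg2 RNA and a poorer match of the PWD sequence to the probes cannot be told apart.

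Myh11, the heavy chain of smooth muscle myosin, had its highest mean in B6, 10.38 ± 0.16 (SD, n = 3), and its lowest in PWDxPWK, 9.66 ± 0.06 (SD, n = 2), and neighbouring genotypes overlapped. Between the parents it stood at 10.04, 10.02 and 10.07 in PWD and at 10.53, 10.39 and 10.22 in B6. These arrays did not overlap, yet the difference of -0.34 (95% interval -0.66 to -0.01) had an adjusted p of 0.152. Arrays lay apart in that direction for 3 of the 9 genes, Actg2, Myh11 and Mylk, and for 16.5% of all genes.

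Tagln, an actin-binding protein also called SM22, was on the other side of the comparison. It had 8.86, 8.91 and 8.78 in PWD and 8.17, 8.53 and 8.52 in B6, with no overlap and a difference of 0.44 (95% interval 0.03 to 0.85; adjusted p = 0.132). It was the 1 gene of the 9 whose arrays lay apart with PWD above, as for 21.5% of all genes. Mylk, the kinase of the myosin light chain, differed between PWD and B6 by -0.25 (adjusted p = 0.193). For Acta2, Cnn1, Des, Myl9 and Smtn the differences between PWD and B6 lay between -0.19 and 0.15, and the median over the 9 genes was -0.01, against 0.04 for all genes.

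Between the reciprocal hybrids 3 of the 9 genes were higher in PWDxB6. Cnn1 (1.48-fold), Des (1.46-fold) and Smtn (1.43-fold) passed the test, and all 9 differences were above 0, as were 55.9% of all genes. Among all genes 1.33% were called higher, and none of the 9 was called lower, against 1.51%. The median difference of the 9 genes was 0.47, against 0.03 over all genes.

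Cnn1, calponin, an actin-binding protein that restrains the myosin motor, had 7.48, 7.93 and 7.90 in PWDxB6 and 7.22, 7.17 and 7.24 in B6xPWD. All 3 PWDxB6 arrays lay above all 3 B6xPWD arrays, and the difference was 0.56 ± 0.15 (SE; limma adjusted p = 0.0479). Des, desmin, the intermediate filament protein of muscle, had 6.39, 6.18 and 6.64 in PWDxB6 and 6.01, 5.94 and 5.60 in B6xPWD. Its arrays did not overlap either, with a difference of 0.55 ± 0.14 (SE; adjusted p = 0.0327).

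Smtn, smoothelin, a protein of the contractile cytoskeleton, had 7.84, 7.71 and 8.05 in PWDxB6 and 7.47, 7.21 and 7.39 in B6xPWD. Its difference of 0.51 ± 0.12 (SE; adjusted p = 0.0215) had the smallest adjusted p of the 9 genes in this comparison. PWDxB6 held the highest and B6xPWD the lowest mean of Des and Smtn among all 7 genotypes, but each overlapped the genotype next in order. For Smtn the mean of PWDxB6 (7.87) was close to those of PWD (7.85) and B6 (7.83).

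Tagln and Myh11 had arrays that lay fully apart but did not pass. Values of Tagln were 8.66, 8.88 and 9.16 in PWDxB6 and 8.39, 8.25 and 8.40 in B6xPWD, a difference of 0.55 (95% interval 0.14 to 0.96; adjusted p = 0.119). Myh11 had 10.22, 10.04 and 10.57 in PWDxB6 and 9.92, 9.55 and 9.93 in B6xPWD, a difference of 0.47 (95% interval 0.14 to 0.80; adjusted p = 0.0975). Arrays were fully apart in this direction for 5 of the 9 genes and for 13.1% of all genes.

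Mylk, Myl9 and both actins overlapped between the hybrids and did not pass. Mylk had 8.04, 7.74 and 8.19 in PWDxB6 and 7.49, 7.57 and 7.85 in B6xPWD, a difference of 0.35 (95% interval 0.09 to 0.62; adjusted p = 0.127). Myl9, the regulatory light chain that this kinase phosphorylates, had 10.22, 10.65 and 10.8 in PWDxB6 and 10.51, 10.32 and 10.45 in B6xPWD. Its difference of 0.13 had a 95% interval of -0.16 to 0.42 (adjusted p = 0.606). The actins had differences of 0.13 for Acta2 (95% interval -0.15 to 0.41) and 0.17 for Actg2 (95% interval -0.11 to 0.45).

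The calls rested on few arrays. Without PWDxB6 replicate 3, or without B6xPWD replicate 2, 0 of the 9 genes passed, and 1 passed without PWDxB6 replicate 1 or without B6xPWD replicate 3. In a fit to the hybrids' own 6 arrays 0 passed. All 9 differences were above 0 each time 1 array was left out, with medians from 0.33 to 0.53. Quantile normalization and centring on autosomal genes left 2 calls each, without Des and without Cnn1 in that order.

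The markers of other cells were read in the same comparison. Meiotic prophase markers averaged 8.49 to 8.80 in PWDxB6 and 9.04 to 9.27 in B6xPWD, with all 15 differences below 0 (12 of 15 after quantile normalization) and none called (1 called lower after centring on autosomal genes). Sertoli markers averaged 9.47 to 9.73 in PWDxB6 and 9.37 to 9.42 in B6xPWD, 14 of 15 above 0 (10 of 15 after centring on autosomal genes) and none called. Endothelial markers were above 0 for 12 of 14, at 5.97 to 6.36 in PWDxB6 and 5.92 to 6.28 in B6xPWD, and none was called. Mural markers were at 6.40 to 6.64 in PWDxB6 and 6.36 to 6.49 in B6xPWD, 7 of 9 above 0 (5 of 9 after quantile normalization), and skeletal muscle markers at 5.92 to 6.03 in PWDxB6 and 5.71 to 5.93 in B6xPWD, 8 of 9 above 0, with none called in either list. Leydig markers were at 6.43 to 6.67 in PWDxB6 and 6.10 to 6.56 in B6xPWD, 5 of 6 above 0 with a median of 0.29, and none was called. The part of these lists in the difference of the contractile genes was not tested.

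**Figure D2:**
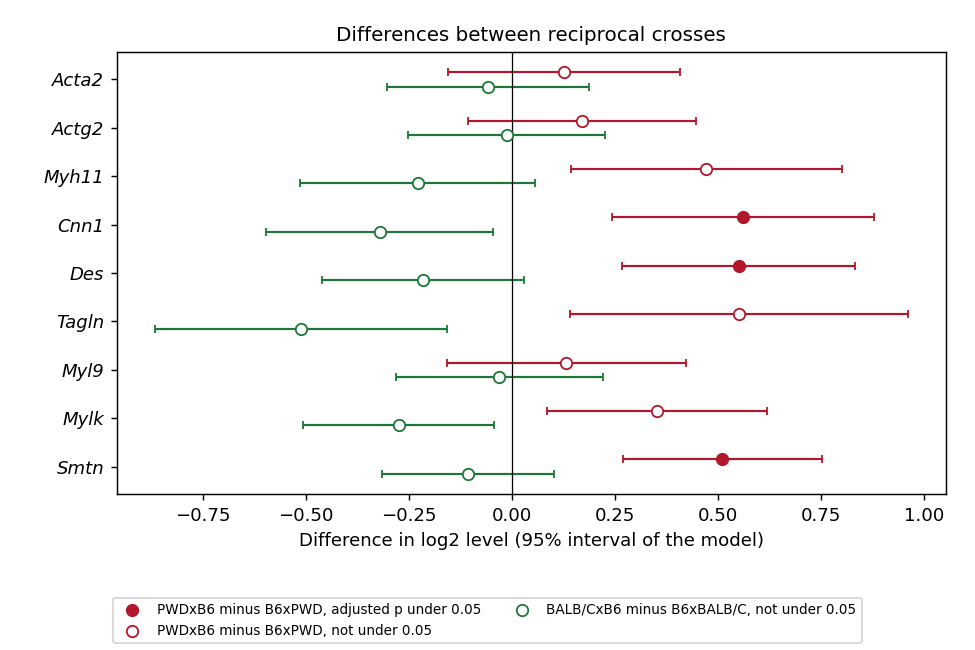
Difference in log2 level (horizontal axis) of each contractile gene between reciprocal crosses, PWDxB6 minus B6xPWD in red and BALB/CxB6 minus B6xBALB/C in green. Bars are 95% intervals of the model and filled points passed the adjusted threshold. All 9 red points lie above 0, with Cnn1, Des and Smtn filled, and all 9 green points lie below 0, with none filled.

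The reciprocal cross within laboratory strains gave the opposite sign. Coded with the cross fathered by B6 first, as in PWDxB6, all 9 differences between BALB/CxB6 and B6xBALB/C were below 0, with a median of -0.21 against 0.03 for all genes, of which 57.7% were above 0. None of the 9 passed, where 0.441% of all genes did (limma; 3 of the 9 and 14.2% of all genes had an unadjusted p under 0.05). After quantile normalization 8 of 9, and after centring on autosomal genes 7 of 9, were below 0. Without BALB/CxB6 replicate 3, 7 of 9 were below 0 and the median was -0.098, and leaving out 1 other array at a time gave medians down to -0.24.

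Tagln had 8.39, 7.99 and 7.70 in BALB/CxB6, while its lowest, median and highest arrays in B6xBALB/C had 8.03, 8.57 and 8.95. The groups overlapped, and the difference was -0.51 (95% interval -0.87 to -0.16; adjusted p = 0.14). Cnn1 had 7.34, 6.95 and 7.19 in BALB/CxB6, and 7.09, 7.52 and 7.75 as the lowest, median and highest in B6xBALB/C, a difference of -0.32 (adjusted p = 0.259). Mylk differed by -0.27 (adjusted p = 0.247), Myh11 by -0.23 and Des by -0.21, and the 4 remaining genes by -0.11 to -0.01.

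The 6 arrays of B6xBALB/C varied among themselves. Replicates 1 and 2 had 8.86 and 8.95 for Tagln, whereas replicates 3 and 4 had 8.24 and 8.03. Meiotic prophase markers averaged 8.77 to 8.87 in BALB/CxB6 and 8.38 to 9.68 in B6xBALB/C, and Sertoli markers 9.39 to 9.71 in BALB/CxB6 and 9.15 to 9.76 in B6xBALB/C. Their part in the contractile genes was not tested. When replicates 4 to 6 of B6xBALB/C were left out together, 2 of the 9 genes, Cnn1 and Tagln, passed as lower in BALB/CxB6. The share of all genes that passed in that setting is not given here, so this count has no background beside it.

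The difference between the 2 reciprocal differences was tested as an interaction. It passed for 5 of the 9 genes, all higher on the side of PWDxB6, where 0.8% of all genes were called higher and 1.88% lower. All 9 values were above 0, as were 53.5% of all genes. Tagln had the largest value, 1.06 ± 0.26 (SE; limma adjusted p = 0.0324), followed by Cnn1 at 0.88 ± 0.20 (SE; adjusted p = 0.0226). Des, Mylk and Smtn had 0.77, 0.63 and 0.62, and Myh11 had 0.70 without passing (adjusted p = 0.0719). Acta2, Actg2 and Myl9 had 0.18, 0.18 and 0.16.

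These calls also hung on single arrays. Without PWDxB6 replicate 3, B6xPWD replicate 2 or BALB/CxB6 replicate 3, 0 of the 9 genes passed the interaction test. Without PWDxB6 replicate 1, BALB/CxB6 replicate 2 or B6xBALB/C replicate 1, 2 passed, and centring on autosomal genes left 3. Quantile normalization gave 4 calls, without Des (adjusted p = 0.0539) and Mylk (adjusted p = 0.0507) and with Myh11 (adjusted p = 0.0473). All 9 values were above 0 under both rescalings.

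Against the mean of the parents, PWD and B6, the medians of the hybrids stood on different sides. Both comparisons share the parental arrays, and B6xPWD also entered the reciprocal comparison, so their values are given side by side and not as separate evidence. In B6xPWD 3 of the 9 genes were lower, Smtn, Des and Myh11, where 6.69% of all genes were called lower, and 0 were higher, against 7.79%. Of the 9 differences 1 was above 0 (2 after centring on autosomal genes, and 3 without B6xPWD replicate 2 or without B6 replicate 2), as were 44.9% of all genes, and the median was -0.28 against -0.03 for all genes. In PWDxB6 all 9 differences were above 0 (8 of 9 after quantile normalization), as were 53% of all genes, with a median of 0.12 against 0.01. Without PWDxB6 replicate 3, 5 of the 9 were above 0 and 4 below, with a median of 0.04. None passed, where 0.671% of all genes did (limma; 2 of the 9 and 12% of all genes had an unadjusted p under 0.05).

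Smtn had 7.47, 7.21 and 7.39 in B6xPWD, against 7.79, 7.91 and 7.85 in PWD and 7.82, 7.97 and 7.71 in B6. Every B6xPWD array lay below every parental array, with a difference of -0.49 ± 0.10 (SE; adjusted p = 0.005). Smtn and Myh11 were the 2 of 9 genes with such a gap, found in 6.81% of all genes. In PWDxB6 the Smtn difference was 0.02 (95% interval -0.19 to 0.23).

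Des had 6.01, 5.94 and 5.60 in B6xPWD, against 6.47, 6.36 and 6.11 in PWD and 5.94, 6.20 and 6.34 in B6, so that B6xPWD overlapped the lowest array of B6. The difference was -0.38 ± 0.12 (SE; adjusted p = 0.0339) in B6xPWD, and 0.17 in PWDxB6. Myh11 differed from the parents by -0.41 ± 0.14 (SE; adjusted p = 0.0485) in B6xPWD, and PWDxB6 differed from them by 0.06. Mylk missed the threshold in B6xPWD, at -0.32 (95% interval -0.55 to -0.09; adjusted p = 0.0585).

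Cnn1 was called in neither hybrid. It differed from the parental mean by -0.08 in B6xPWD (95% interval -0.36 to 0.19) and by 0.48 in PWDxB6 (95% interval 0.20 to 0.75; adjusted p = 0.125). For Tagln the values were -0.28 in B6xPWD and 0.27 in PWDxB6, and for Acta2 -0.04 in B6xPWD and 0.09 in PWDxB6, none of which passed.

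In the comparison of B6xPWD with its parents 0 genes passed without B6xPWD replicate 2, and 1 passed without PWD replicate 1, without PWD replicate 2 or without B6 replicate 2. Quantile normalization removed the call of Des, and centring on autosomal genes that of Myh11. Over 19 alternatives of every kind the call was lost in 11 for Myh11, in 9 for Des and in 2 for Smtn. With the F1 mice within a subspecies in place of the inbred parents, the median in B6xPWD was 0.02 and 0 genes passed, while the median in PWDxB6 was 0.25 and 1 gene, Cnn1, passed. Sertoli markers were below the parental mean in B6xPWD for 13 of 15 (10 of 15 after centring on autosomal genes), with Tubb3, Wt1, Amh, Kitl and Gata4 called lower (4 of the list after centring on autosomal genes), the last of these named after its value was seen. Endothelial markers were below it for 14 of 14, with Tie1, Cdh5, Vwf, Tek and Kdr called lower (4 of the list under either rescaling), the last of these likewise named after its value was seen. Mural markers were below it for 9 of 9 (8 of 9 under either rescaling), with Abcc9 and Cspg4 called lower, and meiotic prophase markers were above it for 15 of 15. Leydig markers were below it for 5 of 6, with a median of -0.39 and Cyp11a1 called lower (none under either rescaling). The part of these lists in the lower contractile levels was not tested.

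**Figure D3:**
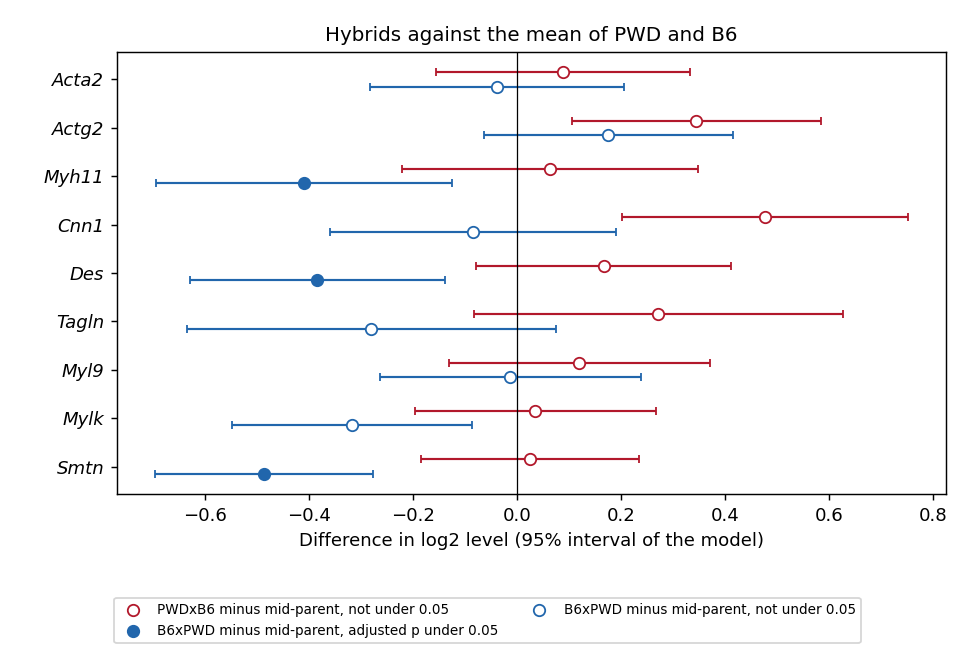
Difference in log2 level (horizontal axis) of each contractile gene from the mean of PWD and B6, for PWDxB6 in red and B6xPWD in blue, with 95% intervals of the model; filled points passed the adjusted threshold. Smtn, Des and Myh11 are filled and below 0 in B6xPWD, and no red point is filled.

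PWDxPWK, the cross of both musculus strains, was compared with its maternal strain PWD. Of the 9 differences 8 were below 0, with a median of -0.21, whereas 50% of all genes were above 0. None of the 9 passed, where 0.00678% of all genes, 1 gene, did (limma; 2 of the 9 and 2.84% of all genes had an unadjusted p under 0.05). Cnn1 had 6.81 and 6.95 in PWDxPWK and 7.28, 7.40 and 7.21 in PWD, and Myh11 had 9.62 and 9.71 in PWDxPWK and 10.04, 10.02 and 10.07 in PWD. Both were fully apart, as were 5 of the 9 genes and 9.79% of all genes in this direction, with differences of -0.42 (95% interval -0.77 to -0.06) and -0.38 (95% interval -0.75 to -0.01). With 2 arrays in PWDxPWK the intervals of the 9 genes were wide, and Des, at 0.01, could lie between -0.30 and 0.33. Without PWDxPWK replicate 1, 6 of the 9 were below 0.

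Other lists were read in the same comparison, and none of their genes was called. The other smooth muscle genes were below 0 for 18 of 21, at 7.79 to 7.89 in PWDxPWK and 7.99 to 8.01 in PWD, and the non-contractile stromal genes for 14 of 15, at 7.86 to 7.91 in PWDxPWK and 7.90 to 8.16 in PWD. Endothelial markers were below 0 for 12 of 14 (11 after quantile normalization), Sertoli markers for 12 of 15 and mural markers for 4 of 9 (3 after quantile normalization). The part of these lists in the contractile levels was not tested.

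**Figure D4:**
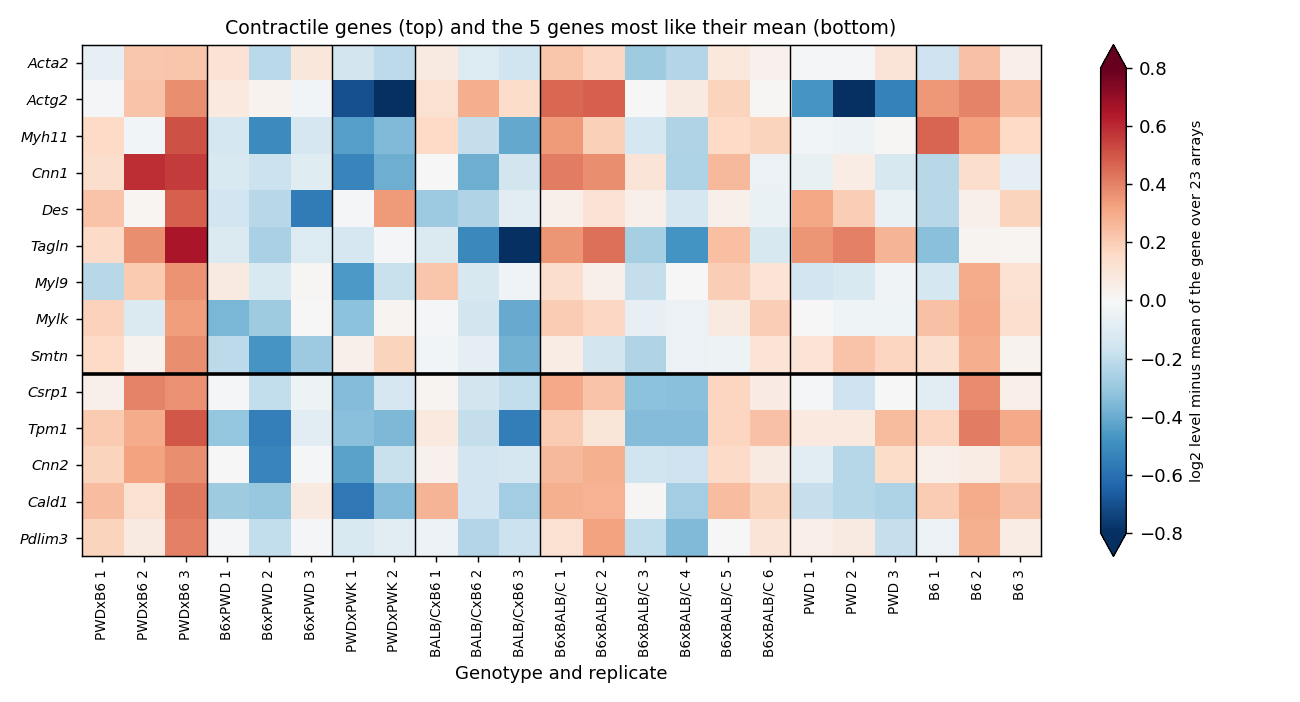
Level of each gene on each array minus its mean over the 23 arrays, in log2 units (colour; values beyond 0.8 in either direction share the end colour), with genotypes and replicates along the horizontal axis. The 9 contractile genes stand above the thick line and Csrp1, Tpm1, Cnn2, Cald1 and Pdlim3, the genes most like their mean, below it. Most genes are high together on PWDxB6 replicate 3, and Actg2 is low throughout PWDxPWK and PWD.

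The 9 genes varied together from array to array, as a description over arrays that share genotypes and cell preparation. Over the 23 arrays the median Pearson correlation of their 36 pairs was 0.50, from -0.22 to 0.87, and 3 pairs were below 0. With each genotype's mean removed the median was 0.44, from 0.03 to 0.82, and 0 pairs were below 0. Myh11 followed the mean of the other 8 genes most closely (r = 0.84), then Cnn1 (0.79), Mylk (0.74) and Acta2 (0.74).

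Actg2 followed the other 8 least over all arrays (r = 0.28), and within genotypes its correlation was 0.48. Des was low in both views (0.36 over all arrays and 0.22 within genotypes). Tagln had 0.63 over all arrays and 0.88 within genotypes, and its SD within genotypes, 0.27, was the largest of the 9, against 0.14 for Smtn. Averaged over the 9 genes, each centred on its own mean, arrays of PWDxB6 ran from 0.08 to 0.43 and arrays of B6xPWD from -0.25 to -0.09, without overlap. Neither hybrid was apart from all other genotypes. Arrays of B6 (0.01 to 0.23) overlapped PWDxB6, and those of PWDxPWK (-0.30 to -0.16) and BALB/CxB6 (-0.25 to 0.01) overlapped B6xPWD. Those of B6xBALB/C (-0.15 to 0.25) overlapped both hybrids, and those of PWD (-0.03 to 0.01) neither.

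The 5 genes outside the 9 whose levels were most like the mean of the 9 over the 23 arrays were Csrp1 (r = 0.90), Tpm1 (0.88), Cnn2 (0.87), Cald1 (0.85) and Pdlim3 (0.84). Csrp1 and Pdlim3 encode LIM domain proteins of the actin cytoskeleton, Tpm1 and Cald1 the tropomyosin and caldesmon that lie on the thin filament, and Cnn2 a calponin. With genotype means removed their correlations were 0.72 to 0.89. All 5 are on the list of other smooth muscle contractile genes, which was chosen with earlier results of these data known. They therefore also count in the values of that list.

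Of that list, 22 of 25 genes were on the array and 21 were tested. Between the reciprocal hybrids 20 of 21 were above 0 (19 after centring on autosomal genes), with a median of 0.34, and 3 were called higher in PWDxB6 and 0 lower (4 and 0 after quantile normalization, 2 and 0 after centring on autosomal genes). Tpm1, at 9.39, 9.48 and 9.68 in PWDxB6 and 8.88, 8.64 and 9.10 in B6xPWD, differed by 0.65 ± 0.17 (SE; adjusted p = 0.0373). Actn1, alpha-actinin, which ties actin filaments to adhesions, differed by 0.46 (adjusted p = 0.0357), and Itga5, an integrin subunit that binds fibronectin, by 0.53 (adjusted p = 0.041). Cnn2 differed by 0.47 without passing (adjusted p = 0.0704).

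Against the parental mean, 7 of the 21 were lower in B6xPWD and 0 higher, with a median of -0.24 (5 lower after centring on autosomal genes). Itga5 (-0.60), Flna, an actin cross-linker (-0.53), Tpm1 (-0.53) and Vcl, vinculin of the adhesions (-0.45), had the smallest p-values. The list thus also holds genes of the general cytoskeleton and adhesions, so its calls are not particular to smooth muscle. None of the 21 passed in PWDxB6 against that mean or between BALB/CxB6 and B6xBALB/C. Between PWD and B6, Actn1 (0.39) and Synpo2 (0.40) were higher in PWD, and Cald1 (-0.46) was lower.

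The regulators of contraction and of SRF gave 20 genes of 24 on the array and 18 tested. Between PWDxB6 and B6xPWD 9 were above 0 and 9 below 0, with a median of 0.02. Tgfb1, a cytokine that induces smooth muscle genes in fibroblasts, was higher in PWDxB6 by 0.88 ± 0.17 (SE; adjusted p = 0.0074), and its receptor gene Tgfbr1 was lower by -0.47 ± 0.12 (SE; adjusted p = 0.0357), a call that quantile normalization removed. Srf differed by 0.42 (adjusted p = 0.154) and Rhoa, which signals to the cytoskeleton, by -0.23 (adjusted p = 0.195).

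Tgfb1 was also lower in B6xPWD than in the parental mean (-0.81; adjusted p = 0.002), where Rhoa (0.33; adjusted p = 0.0156) and Tgfbr1 (0.31; adjusted p = 0.0448) were higher. Between the parents Tgfb3 (-1.34; adjusted p = 3.11e-05) and Tgfb1 (-0.84; adjusted p = 0.001) were lower in PWD, and Smad3, which carries the signal of these cytokines to the nucleus, was higher (0.74; adjusted p = 0.000104). After quantile normalization 1 of the 2 higher calls in B6xPWD was lost. Myocd, the partner of SRF, differed between PWD and B6 by -0.37 without passing (adjusted p = 0.066). The same sequence limit as for Actg2 holds for comparisons of strains in these genes.

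The non-muscle and striated actins that were on the array, Actb, Acta1 and Actc1, did not pass in any comparison, although 1 of the 3 was called lower in B6xPWD than in the parental mean after quantile normalization. Between PWDxB6 and B6xPWD they differed by 0.01, 0.15 and 0.26, and after centring on autosomal genes 1 of the 3 was below 0. Actins are close in sequence, and how much signal Acta2, Actg2 and these genes share on the array was not tested. Tagln overlaps the protein-coding gene Pcsk7 in RefSeq, and Actg2, Des, Mylk and Smtn overlap long non-coding RNAs, and signal from those neighbours was not told apart from theirs.

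Stromal and peritubular genes that are not contractile were mixed in direction between the reciprocal hybrids. Of 15 tested, 10 were above 0 between PWDxB6 and B6xPWD (9 after centring on autosomal genes), with a median of 0.14. Mgp, matrix Gla protein, was the only one called, and it was lower in PWDxB6 by -0.80 ± 0.18 (SE; adjusted p = 0.0195). Gli1, a target of hedgehog signalling, had 0.42 (adjusted p = 0.072).

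In B6xPWD against the parental mean, Mgp was higher (0.75; adjusted p = 0.00456), while Col1a1, a collagen chain (-0.70; adjusted p = 0.0136), Pdgfrb (-0.49; adjusted p = 0.0181) and Gli1 (-0.38; adjusted p = 0.0259) were lower. Ptch1, the hedgehog receptor, was lower too (-0.41; adjusted p = 0.0443), and it is named after its value was seen. Of the 15 stromal genes 13 were below the parental mean in B6xPWD, with a median of -0.28 beside -0.28 for the contractile genes. Of these 15 genes 4 were called lower (3 after centring on autosomal genes) and 1 higher. Whether the contractile and the other stromal genes differed in their response was not tested.

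**Figure D5:**
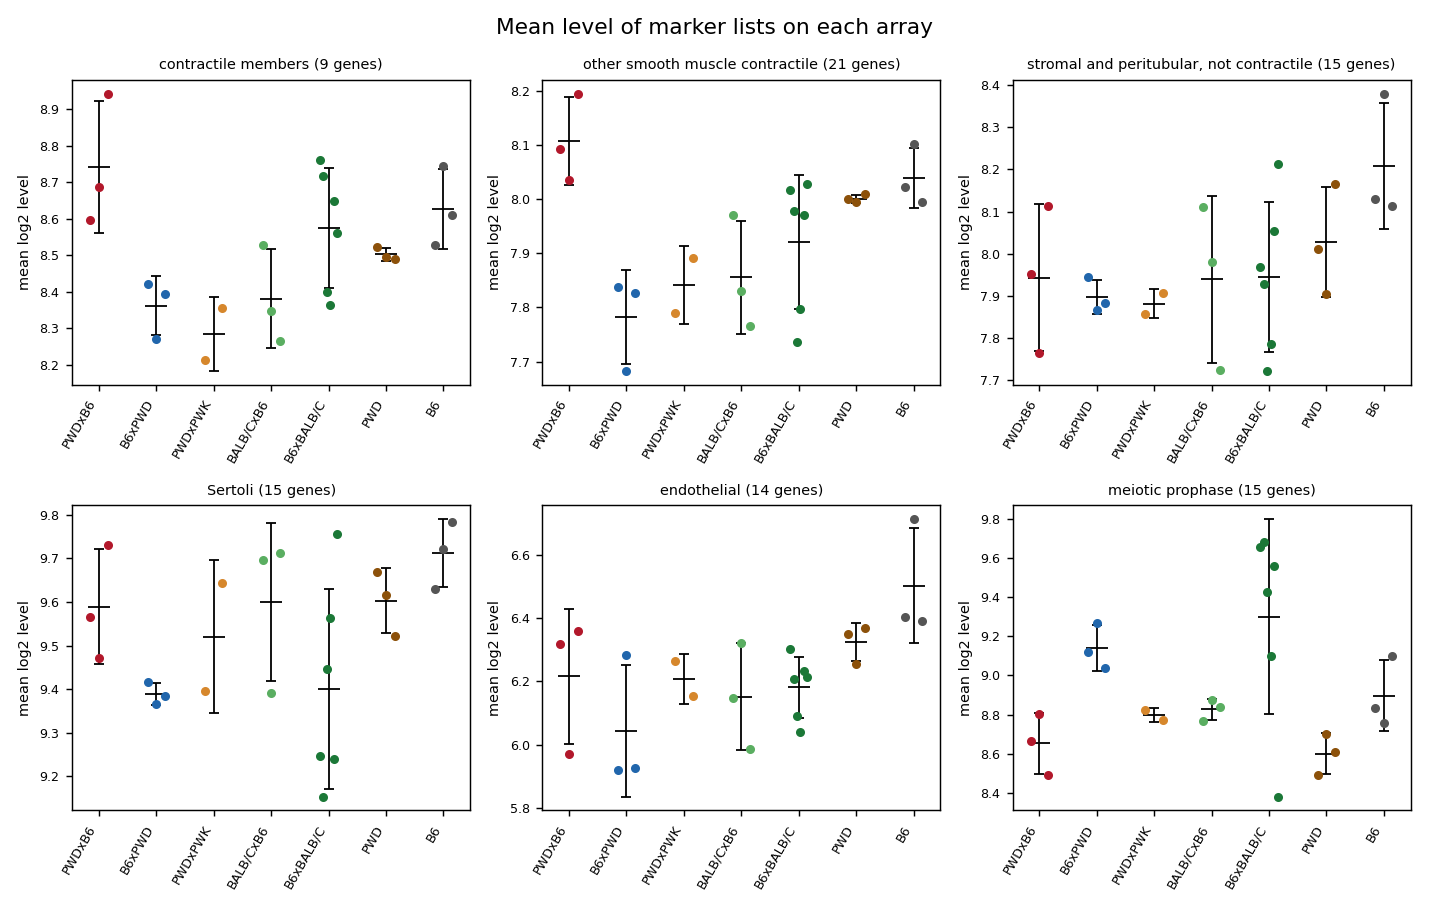
Mean log2 level of 6 marker lists on each array (vertical axis, a separate range for each panel) in the 7 genotypes; points are arrays and bars are means with standard deviations. The contractile genes, the other smooth muscle genes and the Sertoli list are higher in every PWDxB6 array than in any B6xPWD array. The meiotic prophase list is lower, and the stromal and endothelial lists overlap between these hybrids.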

How the data were processed

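The deposited table holds, per the labels, 1 column for each of 23 Affymetrix Mouse Gene 1.0 ST arrays. The authors' values are log2 levels per probe set (1.17 to 13.96). The base of 2 was read from that range; the sources used here do not name the software or how arrays were normalized. Per the labels' protocols RNA was labelled by the whole-transcript sense assay, whereas the design text names a 3′ IVT kit. Of 25690 probe sets 20777 had 1 gene symbol, 232 several and 4681 none. A gene with several probe sets (564 of 19661) was represented by that with the highest mean, and the 25% of genes with the lowest mean (log2 under 5.12) were left out, leaving 14745.

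One linear model, a mean for each of 7 genotypes, was fitted with limma 3.58.1 in R 4.3.3 over the 23 arrays, leaving 16 degrees of freedom. Variances were moderated, p-values adjusted over all genes tested by Benjamini-Hochberg, and calls made at 0.05. The parental mean is that of the PWD and B6 group means. The fit was run on simulated data with independent noise for each gene, which checks the code and not the calls. Figures were drawn with matplotlib 3.10.9 in Python 3.11.15. Besides the 9 genes, the text names the 5 genes most like their mean, up to 4 genes of a list by smallest p, and all non-muscle and striated actins. The 14 lists held 185 genes; 173 had a probe set and 161 were tested. The macrophage, Leydig, mesothelial and spermatogonia lists had 0 genes called between PWDxB6 and B6xPWD. The 9 genes and the lists were chosen with earlier results of these data known. Alternatives concerned filters, scaling, probe sets, variances, weights, the replicate number and single arrays. Probe sequences and scanner files were not used here.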

Additional observations from a re-analysis of the deposited data

Results flagged for a closer look

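For 5 of the 9 contractile genes the difference between reciprocal crosses itself differed between the crosses of PWD with B6 and those of BALB/C with B6, by limma's interaction test at an adjusted p under 0.05. In that test 0.8% of all genes were called higher and 1.88% lower. PWDxB6 minus B6xPWD exceeded BALB/CxB6 minus B6xBALB/C by 1.06 for Tagln, by 0.88 for Cnn1, by 0.77 for Des, by 0.63 for Mylk and by 0.62 for Smtn on the log2 scale. The 2 differences behind the value were 0.55 and -0.51 for Tagln, 0.56 and -0.32 for Cnn1, 0.55 and -0.21 for Des, 0.35 and -0.27 for Mylk, and 0.51 and -0.11 for Smtn. The difference in the PWD and B6 hybrids passed its own test for Cnn1, Des and Smtn, and that in the BALB/C and B6 crosses passed for none of the 9. Without PWDxB6 replicate 3, B6xPWD replicate 2 or BALB/CxB6 replicate 3, 0 of the 5 passed. With the fit limited to the groups compared 1 of the 9 genes passed, and Mylk lost its call in 15 of 25 alternatives.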

How the results depend on the processing

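Of 1134 alternative values of single genes, 980 kept their direction and their side of the threshold, 81 lost a call, 27 gained one and 46 changed sign, 0 of them called in either setting. Of 12 calls among the 63 gene and comparison pairs, only that of Actg2 between PWD and B6 held in all its 15 alternatives (-1.04 to -0.84). With array weights 6 genes were called between PWDxB6 and B6xPWD, 5 in B6xPWD against the parents and 2 between BALB/CxB6 and B6xBALB/C. The shares of all genes called with array weights or in the other alternatives are not given here. The counts of calls in these alternatives therefore have no background beside them. With the fit limited to the groups compared, the counts were 0 between PWDxB6 and B6xPWD, 2 between PWD and B6 and 1 for the interaction. Centring on autosomal genes gave 3 for the interaction. Against the F1 mice within a subspecies, 1 gene was called in PWDxB6 (median 0.25) and 0 in B6xPWD (median 0.020). Leaving out 1 array at a time gave 0 to 3 calls (median 0.33 to 0.53) between PWDxB6 and B6xPWD, 0 to 1 (median 0.04 to 0.19) in PWDxB6 and 0 to 2 in B6xPWD against the parents, and 0 to 6 for the interaction. For each array the deviations of all genes tested from the mean of its genotype were taken, over replicates up to 3. For same-numbered arrays these deviations correlated by 0.03 to 0.22 for PWDxB6 and B6xPWD and by -0.22 to -0.00072 for PWD and B6. The range was 0.08 to 0.24 for BALB/CxB6 and B6xBALB/C, 0.07 to 0.19 for PWDxPWK and PWD, and 0.05 to 0.25 for B6xPWD and PWD. It spanned 0 for PWDxB6 with PWD or B6 and for B6xPWD with B6. In no pair of groups did the deviations of every array correlate best with those of the array of its own number. Whether same-numbered arrays shared a litter or batch was not tested. The replicate block, on replicates 1 to 3, gave 1 call in PWDxB6 against the parents and 2 between BALB/CxB6 and B6xBALB/C, and leaving out B6xBALB/C replicates 4 to 6 gave the same 2. Signs changed as follows. After quantile normalization Smtn was -0.0052 in PWDxB6 against the parents, Acta2 0.022, Cnn1 -0.016 and Smtn -0.0027 between PWD and B6, and Actg2 0.000873 between BALB/CxB6 and B6xBALB/C. After centring on autosomal genes Myl9 was 0.018 in B6xPWD against the parents, Cnn1 -0.012 and Smtn -0.00314 between PWD and B6, and Actg2 0.022 and Myl9 0.00421 between BALB/CxB6 and B6xBALB/C. Between BALB/CxB6 and B6xBALB/C, Myl9 was 0.020 with array weights and 0.023 with the replicate block and without replicates 4 to 6, and with array weights Des was -0.023 in PWDxPWK against PWD. Against the F1 mice, B6xPWD had 0.077 for Acta2, 0.035 for Cnn1, 0.020 for Tagln (-0.28 against the inbred parents) and 0.069 for Myl9. With 1 array left out, PWDxB6 against the parents ran from -0.084 to 0.18 for Myh11, -0.00167 to 0.29 for Myl9, -0.064 to 0.16 for Mylk and -0.066 to 0.10 for Smtn, and B6xPWD from -0.094 to 0.067 for Acta2 and -0.070 to 0.042 for Myl9. PWD against B6 ran from -0.11 to 0.088 for Acta2, -0.074 to 0.11 for Cnn1 and -0.044 to 0.091 for Smtn. BALB/CxB6 against B6xBALB/C ran from -0.066 to 0.044 for Actg2, -0.13 to 0.046 for Myl9 and -0.18 to 0.00289 for Smtn. PWDxPWK against PWD ran from -0.16 to 0.19 for Des, -0.30 to 0.046 for Mylk and -0.13 to 0.00584 for Smtn. The cause of these shifts was not tested. The 2 to 6 arrays of a group, pooled testes and unstated normalization limit all comparisons; levels of different genes are not comparable on this array.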
